A study of Mus musculus with 12 samples.

Results

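The genes of cell proliferation and DNA replication were followed in RGCs and in the other retinal cells of newborn WT mice and of mice in which Ezh2 was deleted in the RGC lineage. They are 49 genes picked by name, among 38720 in the tables, and every one of them passed the filter on low values (a mean of at least 10 normalized reads in either genotype). They were grouped by what their proteins do, as 9 genes of origin licensing, 7 of the replication fork, 2 of the histone chaperone, 3 of nucleotide synthesis, 4 E2F factors, 8 cyclins, kinases and phosphatase, 6 mitotic kinases and checkpoint proteins, 6 of spindle and centromere, 2 of the anaphase promoting complex and 2 chromosome proteins that mark cycling cells.

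A dividing cell first licenses its replication origins, when Cdc6 and Cdt1 load the ring of Mcm proteins onto DNA and geminin (Gmnn) keeps Cdt1 in check. Cyclin E with Cdk2 and later cyclin A start the replication forks, where Cdc45 and the GINS proteins turn the Mcm ring into a running helicase, the primase and polymerase alpha lay down primers, and Pcna clamps the polymerases to DNA. Cyclin B with Cdk1, the Aurora and Polo kinases and the spindle proteins then carry the cell through mitosis, which ends when Cdc20 activates the anaphase promoting complex. E2F factors switch many of these genes on before replication, whereas E2f7 and E2f8 act as repressors. In the mouse retina at birth, progenitor cells still divide and give rise to the late-born cell types, whereas the precursors of RGCs leave the cell cycle, for the most part, before birth.

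RNA was sequenced from P0 retinas of WT mice and of Math5-Cre;Ezh2 flox/flox mice (mKO), all listed with the strain C57/BL6, in 3 libraries per genotype for each of 2 cell fractions, or 12 libraries in all. RGCs were the cells caught by magnetic beads against CD90 (Thy-1), and non-RGCs were the cells left after that step. In mKO mice both Ezh2 alleles carry loxP sites around the exons of the SET domain and Cre is made from the Math5 locus, which is active in the precursors of RGCs and, according to the study, in only some of the RGCs, so that the mKO RGCs may mix cells with and without the deletion. The controls of these libraries are labelled WT, while the study elsewhere used floxed littermates as controls. The 3 libraries of a group came from separate RNA extractions, and the sources used here do not say whether each held 1 animal or a pool, so that the p-values measure the spread between these extractions. The tables hold only the mean of each group, but the reads of every library could be recovered from its digits; the libraries of a group carry no number and are lettered by depth, A being the deepest and C the least deep. Between 7139633 and 13014004 reads lay on genes per library.

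Ezh2 itself, the methyltransferase that puts the repressive mark on histone H3, had 1354, 1476 and 1443 normalized reads in mKO RGCs against 1189.9, 1206 and 1678 in WT RGCs, and 1889, 2107 and 2509 in mKO non-RGCs against 2115, 2149 and 1683 in WT non-RGCs. A normalized read here is a read divided by the size factor that the authors gave its library. The mean of Ezh2 in mKO RGCs was not below that in WT RGCs (log2 difference 0.087 ± 0.13 SE, adjusted p = 0.637 in limma). These reads were counted over the whole gene and not over the deleted exons, so they do not check the genotype labels.

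The WT RGC library C stood apart from the other WT RGC libraries in these genes, and results that rest on it are given with and without it. All 49 members had their highest WT RGC value in library C, which was so for 46.3% of all genes tested. Its values were 1.41 (Mcm7) to 2.42 times (Cdc25c) the mean of libraries A and B, with a median of 1.73, against a median of 1.02 over all genes. The markers of retinal progenitors were highest in library C too, 10 of 10 with a median ratio of 1.47, and 7 of 8 photoreceptor markers at 1.47. The RGC markers were lowest there in 7 of 10, with a median ratio of 0.932. The part of these other cells in the values of library C was not tested. The median SD of a member within WT RGCs was 0.46 on the log2 scale, against 0.13 in mKO RGCs, 0.16 in WT non-RGCs and 0.18 in mKO non-RGCs, and over all genes it was 0.18 in WT RGCs. In WT non-RGCs the library C was the highest for 41 of 49 members and 44.8% of all genes. In mKO RGCs the library B was so for 41 of 49 members and 37.7% of all genes. In mKO non-RGCs the library C was so for 33 of 49 and 41.1%.

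**Figure D1:**
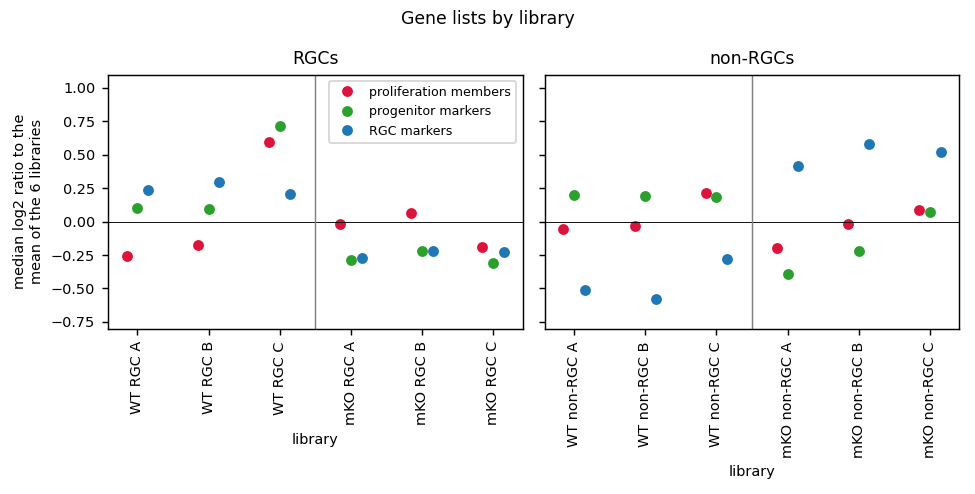
Each point is the median over the genes of a list of the log2 ratio of a library to the mean of the 6 libraries of its fraction, for the proliferation members, 10 progenitor markers and 10 RGC markers. In RGCs the proliferation members stood at 0.59 in WT library C, at -0.26 and -0.18 in the other WT libraries and between -0.19 and 0.064 in the mKO libraries.

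The promoters of the members were searched for short motifs, which some of them held and others did not. RefSeq windows of GRCm38.p6 from 250 bases before to 50 bases after the start were at hand for 40 members (43 windows, since E2f2, Fen1 and Mcm7 had a second start), and not for Ccna2, Tpx2, Mcm4, Gins1, Gmnn, Gins2, Ccne2, Aurkb and Cdc25c. Motifs searched on both strands were the E2F letters TTTCCCGC, TTTGGCGC, TTTCGCGC or TTTGCCGC, the cell cycle genes homology region (CHR) TTTGAA, and the CCAAT box. An E2F match was in 9 of 24 windows (37.5%) of the replication, nucleotide, histone chaperone and E2F genes and in 2 of 19 (10.5%) of the cyclin, kinase and mitosis genes, against 2.26% of all 32851 windows. A CHR match was in 5 of 24 (20.8%) of the former and 12 of 19 (63.2%) of the latter, against 17.9% of all windows. CCAAT was in 17 of 24 (70.8%) and 16 of 19 (84.2%), against 37.4% of all windows. These matches are descriptions of the letters and not of binding. The windows of 4 members are shown, 5′ to 3′ on the strand of the gene with every match on either strand in capitals. Mcm6 stands for licensing, Cdk1 for mitosis, and Cenpf and Pcna are members that rose and fell in mKO RGCs.
Mcm6 (chr1:128359656-128359955, minus strand): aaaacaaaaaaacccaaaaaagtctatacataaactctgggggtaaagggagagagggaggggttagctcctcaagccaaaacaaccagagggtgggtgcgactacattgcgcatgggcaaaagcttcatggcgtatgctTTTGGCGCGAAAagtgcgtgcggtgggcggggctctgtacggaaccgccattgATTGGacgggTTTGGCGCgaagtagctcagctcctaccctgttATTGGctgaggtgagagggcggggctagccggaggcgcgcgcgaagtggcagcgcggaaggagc
Cdk1 (chr10:69352863-69353162, minus strand): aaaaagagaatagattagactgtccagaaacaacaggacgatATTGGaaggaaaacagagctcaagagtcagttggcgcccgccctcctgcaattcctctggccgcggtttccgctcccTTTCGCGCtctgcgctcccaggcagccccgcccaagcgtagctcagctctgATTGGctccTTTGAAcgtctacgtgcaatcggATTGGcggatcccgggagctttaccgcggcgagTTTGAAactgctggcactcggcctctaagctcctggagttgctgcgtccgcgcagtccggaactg
Cenpf (chr1:189688037-189688336, minus strand): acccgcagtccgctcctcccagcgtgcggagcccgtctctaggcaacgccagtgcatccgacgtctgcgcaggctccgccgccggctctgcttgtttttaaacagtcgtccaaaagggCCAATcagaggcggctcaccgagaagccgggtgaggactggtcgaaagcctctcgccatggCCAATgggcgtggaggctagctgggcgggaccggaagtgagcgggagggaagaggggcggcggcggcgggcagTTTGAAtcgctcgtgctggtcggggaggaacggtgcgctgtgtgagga
Pcna (chr2:132253131-132253430, minus strand): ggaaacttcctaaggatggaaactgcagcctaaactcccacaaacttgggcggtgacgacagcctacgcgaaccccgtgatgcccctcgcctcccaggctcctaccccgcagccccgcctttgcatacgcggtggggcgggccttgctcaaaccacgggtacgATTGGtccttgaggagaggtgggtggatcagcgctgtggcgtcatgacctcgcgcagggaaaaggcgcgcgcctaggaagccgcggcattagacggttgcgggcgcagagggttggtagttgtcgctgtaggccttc

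In Mcm6 an E2F match on one strand overlaps an E2F match on the other, and the window holds 3 E2F matches in all with 2 CCAAT boxes and no CHR. The Cdk1 window holds 1 E2F match, 2 CHR and 3 CCAAT matches, Cenpf 1 CHR and 2 CCAAT matches, and Pcna 1 CCAAT box.

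RGCs were first compared with non-RGCs within each genotype. In WT mice all members stood lower in RGCs than in non-RGCs, and 48 of the 49 passed the test (adjusted p under 0.05 by Benjamini-Hochberg in limma), where 22.6% of all genes tested did so in this direction. The median log2 difference of the members was -1.04 (range -1.52 to -0.43), or 2.06-fold lower, beside a median of -0.025 over all 16502 genes. In mKO mice 48 of 49 were again called lower, where 25.4% of all genes were, with a median of -1.06 (range -1.47 to -0.46). The highest RGC library lay below the lowest non-RGC library for 48 of 49 members in WT and for 49 of 49 in mKO mice, against 27.8% and 32.6% of all genes. For this comparison the reads of all 12 libraries were scaled together by the median of ratios. With scaling to total reads the medians were -1.13 in WT and -1.19 in mKO mice, beside -0.11 and -0.15 over all genes. The RNA comes from many cells, so that fewer dividing cells and less of these transcripts per cell cannot be told apart.

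Mki67, the surface protein of mitotic chromosomes known as Ki-67, had 2399, 3033 and 4342 normalized reads on the scale of all 12 libraries in WT RGCs and 6033, 5479.6 and 8004 in WT non-RGCs. Every WT RGC library lay below every WT non-RGC library, and the log2 difference was -1.02 ± 0.19 SE (adjusted p = 0.000550 in limma). In mKO mice Mki67 had 3386, 3720.1 and 3598 in RGCs and 5511, 4821 and 4398 in non-RGCs, which did not overlap either, but the difference of -0.46 ± 0.19 SE missed the threshold (adjusted p = 0.0529 in limma) and was the smallest of the 49 there. Cdc25c, the phosphatase that activates Cdk1, had the largest difference in both genotypes. It had 124, 126 and 289 in WT RGCs against 492, 427 and 520.3 in WT non-RGCs, and 243, 249 and 219.7 against 613, 682 and 687 in mKO mice. The log2 differences were -1.52 ± 0.25 SE in WT (adjusted p = 0.000270 in limma) and -1.47 ± 0.25 SE in mKO mice (adjusted p = 0.000329 in limma).

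Pcna, the sliding clamp, had the smallest difference in WT mice, with 688, 722 and 961 in RGCs against 979, 1020.2 and 1173 in non-RGCs. Library C came closest to the non-RGC values, and the log2 difference of -0.43 ± 0.15 SE passed the test (adjusted p = 0.0286 in limma). Ccne1, which encodes cyclin E1, was the only member with overlap in WT mice, where library C had the highest of 189.8, 208 and 384 in RGCs against 314, 329 and 441 in non-RGCs. Its difference of -0.53 ± 0.25 SE was not called (adjusted p = 0.100 in limma). Without WT RGC library C all 49 members were called lower in WT RGCs, where 23.2% of all genes were, and the median became -1.28. Library C held the highest WT RGC value of every member. Its removal therefore makes each of these differences larger and is not independent support. By role, the median in WT mice ran from -0.90 for nucleotide synthesis and -0.91 for the replication fork to -1.22 for spindle and centromere and -1.23 for the E2F factors. In mKO mice it ran from -0.58 for Mki67 and Top2a to -1.15 for the histone chaperone.

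**Figure D2:**
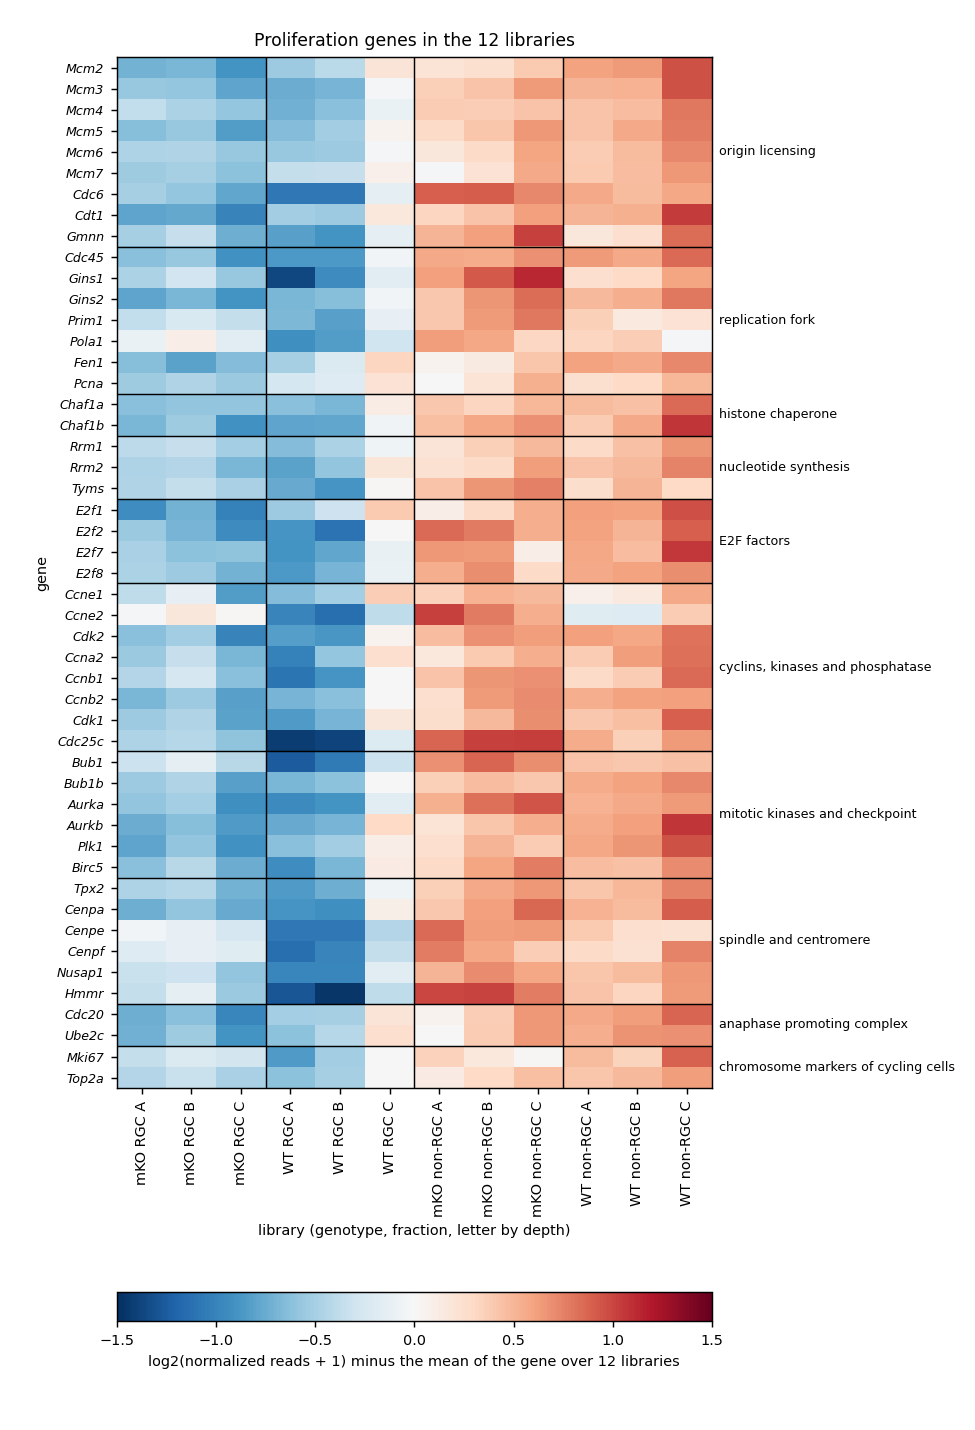
Color shows log2(normalized reads + 1) of each of the 49 members, in rows by role, in each of the 12 libraries, in columns, minus the mean of the gene over the 12 libraries. Within each genotype RGC libraries are lower than non-RGC libraries, apart from Ccne1 in WT library C, and among the RGC libraries WT library C is the highest for all members but Ccne2, Cenpe, Cenpf, Pola1, Bub1 and Hmmr.

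**Figure D3:**
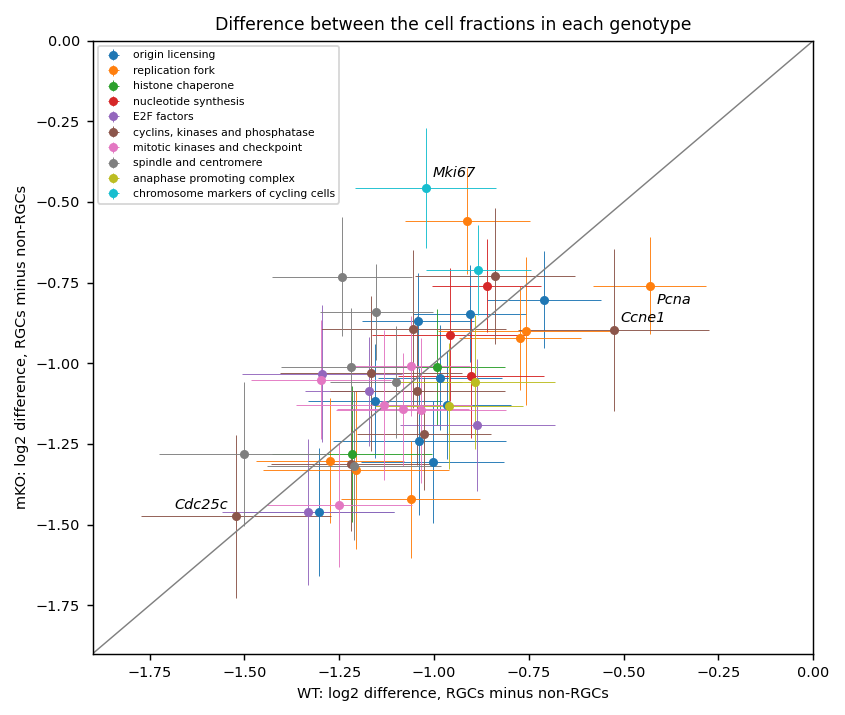
Each point is a member, with its log2 difference between RGCs and non-RGCs in WT mice on the horizontal axis and in mKO mice on the vertical axis, bars of 1 SE and colors by role. All points lie below 0 on both axes, and the line marks equal differences. Mki67 stands at -1.02 in WT and -0.46 in mKO mice.

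Levels between genes were compared per kilobase of exon, on the scale of all 12 libraries. In WT non-RGCs Cdc20, the activator of the anaphase promoting complex, was the highest at 813 ± 95.8 normalized reads per kilobase (SD, n = 3), followed by E2f1 at 656 ± 95.1, Top2a at 651 ± 48.8 and Mki67 at 647 ± 132, which lay within their spread of each other. The Mcm genes other than Mcm2 were between 529 (Mcm7) and 580.2 (Mcm6) and did not differ beyond their spread. The lowest were Fen1, the flap endonuclease, at 40.9 ± 2.38 and Ccne2 at 87.1 ± 21.2. In WT RGCs Cdc20 was again the highest at 427 ± 128, whereas in mKO RGCs Mki67 (355 ± 16.8) and Top2a (342 ± 19.0) came before Cdc20 (294 ± 35.7). Levels of genes that share exon bases with a neighbor on the other strand are uncertain, because the sources used here do not say whether strand was counted. These bases were 84.2% of the exons of Fen1, 67.3% of Gins2, 52.5% of Chaf1a, 22.8% of Ube2c and 17.4% of Ccne2, whose neighbor is Ints8.

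Markers of the cell types moved with the fractions. All 10 RGC markers were called higher in RGCs, by a median log2 difference of 3.46 in WT and 1.62 in mKO mice, and so were all 6 microglia markers, by 4.80 and 3.70. The progenitor markers were called lower in RGCs in 9 of 10 in WT (median -0.71) and 10 of 10 in mKO mice (-0.91), and photoreceptor markers in 7 of 8 in either genotype. Summed over the 10 genes, progenitor markers came to 13064 to 20515 normalized reads in WT RGC libraries and 22455 to 24208 in WT non-RGC libraries, each on the scale of its own table. No marker was at 0 in all libraries of a group. The part of these cell types in the member values was not tested.

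Coordinates of the members called between genotypes are given on GRCm38, from the GENCODE annotation. Ccne2 lies on chromosome 4 from 11191351 to 11204779 on the plus strand. Cenpe lies on chromosome 3 from 135212537 to 135273611 on the plus strand. Cenpf lies on chromosome 1 from 189640606 to 189688086 on the minus strand. Pola1 lies on chromosome X from 93304767 to 93632155 on the minus strand. Pcna lies on chromosome 2 from 132249162 to 132253314 on the minus strand. Mcm2 lies on chromosome 6 from 88883474 to 88898780 on the minus strand.

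The next question was whether the loss of Ezh2 moved these genes in RGCs. In mKO RGCs 4 of the 49 members rose and 1 fell at an adjusted p under 0.05, where 16.3% of the 16085 genes tested rose and 21.2% fell. Those that rose were Ccne2, Cenpe, Cenpf and Pola1, of the cell cycle start, the kinetochore and the replication fork, and Pcna, also of the fork, fell. The members had a median log2 difference of -0.11 (range -0.74 to 0.87), beside -0.0024 over all genes. The mKO and WT libraries did not overlap for 12 members, 4 higher and 8 lower in mKO RGCs, or 24.5% of them, against 53.0% of all genes. With WT library C left out, 18 members rose and 5 fell, where 23.2% of all genes rose and 27.7% fell. With scaling to total reads 3846 genes rose and 2240 fell (23.9% and 13.9%) in place of 2622 and 3405, the median of all genes was 0.12, and of the members the same 4 rose and none fell.

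Among the licensing genes none passed the test in RGCs. The Mcm2 to Mcm7 proteins form the ring of the helicase. Mcm2 had 1074, 1106 and 959 normalized reads in mKO against 1214, 1327 and 2117 in WT libraries, lower in mKO without overlap, with a log2 difference of -0.53 ± 0.20 SE (adjusted p = 0.0755 in limma). Mcm7 had 1155, 1195 and 1109 against 1306, 1315 and 1854, also without overlap, with a log2 difference of -0.35 ± 0.14 SE (adjusted p = 0.0805 in limma). The other 4 overlapped. Mcm3 had 907, 912 and 796 in mKO against 811, 828 and 1389.9 in WT RGCs. Mcm4 had 1085, 1011 and 951 against 853, 906 and 1367. Mcm5 had 942, 999.5 and 837 against 937, 1023 and 1600.0. In each of these 3 genes WT library C lay above all mKO libraries, and in Mcm4 the mKO libraries lay above WT A and B. Mcm6 had 1372, 1407 and 1305 against 1285, 1303 and 1945, with the mKO libraries again above WT A and B and below C. The log2 differences of these 4 were -0.32 (Mcm5) to -0.0063 (Mcm4), with adjusted p between 0.235 and 0.981 in limma. Cdt1, the loader of the Mcm ring, was lower in mKO without overlap at 485, 498 and 427 against 587, 575 and 984 and missed the threshold (-0.56 ± 0.21 SE, adjusted p = 0.0693 in limma).

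At the replication fork, Pola1, the catalytic subunit of DNA polymerase alpha, had 717, 833 and 702 normalized reads in mKO RGCs against 407, 429.9 and 652 in WT RGCs. The lowest mKO library was above WT library C, and Pola1 rose 1.54-fold (log2 difference 0.62 ± 0.18 SE, adjusted p = 0.0323 in limma). Pcna went the other way, with 582, 621 and 579.7 in mKO against 701, 732 and 1022 in WT RGCs. No libraries overlapped, and Pcna fell 1.36-fold (log2 difference -0.44 ± 0.14 SE, adjusted p = 0.0462 in limma). Pseudogenes of Pcna (Pcna-ps1 and Pcna-ps2) are annotated, and how reads shared with them were counted is not given in the sources used here. The other 5 fork genes had log2 differences between -0.58 (Fen1) and 0.37 (Gins1) and were not called. Rrm2, the small subunit of ribonucleotide reductase that makes the DNA precursors, had 739.9, 761 and 646 in mKO against 589.9, 675 and 1217 in WT RGCs. The ranges overlapped and the log2 difference was -0.14 ± 0.25 SE (adjusted p = 0.694 in limma). Neither Rrm1 nor Tyms, nor the 2 histone chaperone subunits, was called.

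Of the E2F factors, E2f1, the activator that opens the replication program, had the lowest log2 difference of any member. It had 659.6, 775 and 635 normalized reads in mKO against 863, 1009 and 1738 in WT RGCs. All mKO libraries lay below all WT libraries, but the WT spread was wide and the log2 difference of -0.74 ± 0.24 SE just missed the threshold (adjusted p = 0.0506 in limma). E2f2, E2f7 and E2f8 were between -0.086 and 0.016 and were not called. Ccne2, which encodes cyclin E2, had the largest rise of the members. It had 296, 342 and 312 in mKO against 152, 138 and 243 in WT RGCs, with no overlap, and rose 1.83-fold (log2 difference 0.87 ± 0.21 SE, adjusted p = 0.0173 in limma). The paralog Ccne1 had 231, 279 and 171 against 194, 211 and 408 and a log2 difference of -0.20 ± 0.31 SE (adjusted p = 0.646 in limma).

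The cyclins and the kinase of mitotic entry overlapped between genotypes. Ccna2 (cyclin A2) had 882, 1027 and 819 normalized reads in mKO against 647, 868 and 1626 in WT RGCs. WT library C lay far above the mKO libraries, and A below all of them. The log2 difference was -0.10 ± 0.31 SE, with a 95% confidence interval of -0.82 to 0.62. Ccnb1 (cyclin B1) had 408, 467 and 365 in mKO against 259, 299.6 and 586 in WT RGCs. Its mKO libraries all lay above WT A and B and below C, and the log2 difference was 0.20 ± 0.29 SE with an interval of -0.48 to 0.89. Cdk1, their partner kinase, had 507, 546 and 430.1 in mKO against 412, 455 and 872 in WT RGCs, a log2 difference of -0.15 ± 0.27 SE with an interval of -0.79 to 0.49. None of the 3 was called, and the intervals are wide in both directions.

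Among the spindle and centromere genes, Cenpe, the kinesin of the kinetochore, had 1624, 1546 and 1428 normalized reads in mKO against 795, 792 and 1295 in WT RGCs. Every mKO library was above every WT library, and Cenpe rose 1.64-fold (log2 difference 0.71 ± 0.19 SE, adjusted p = 0.0231 in limma). Cenpf, a large kinetochore protein, had 2102, 2229 and 2158 in mKO against 1105, 1205 and 1973 in WT RGCs, again with no overlap, and rose 1.57-fold (log2 difference 0.65 ± 0.20 SE, adjusted p = 0.0415 in limma). The other 4 genes of this group were between -0.13 (Cenpa) and 0.67 (Hmmr) and were not called. Of the 6 mitotic kinases and checkpoint proteins, Bub1 was the highest at 0.57 and Plk1 the lowest at -0.43, and none was called. Cdc20 and Ube2c of the anaphase promoting complex were at -0.52 and -0.47, neither of them called. Mki67 had 3433, 3806 and 3714 in mKO against 2447, 3072 and 4621 in WT RGCs and overlapped (log2 difference 0.16 ± 0.21 SE, adjusted p = 0.576 in limma). Top2a, the topoisomerase that untangles sister DNA, had 3084, 3342 and 3024 against 2736, 2946 and 4355 and a log2 difference of -0.057 ± 0.17 SE (adjusted p = 0.810 in limma).

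**Figure D4:**
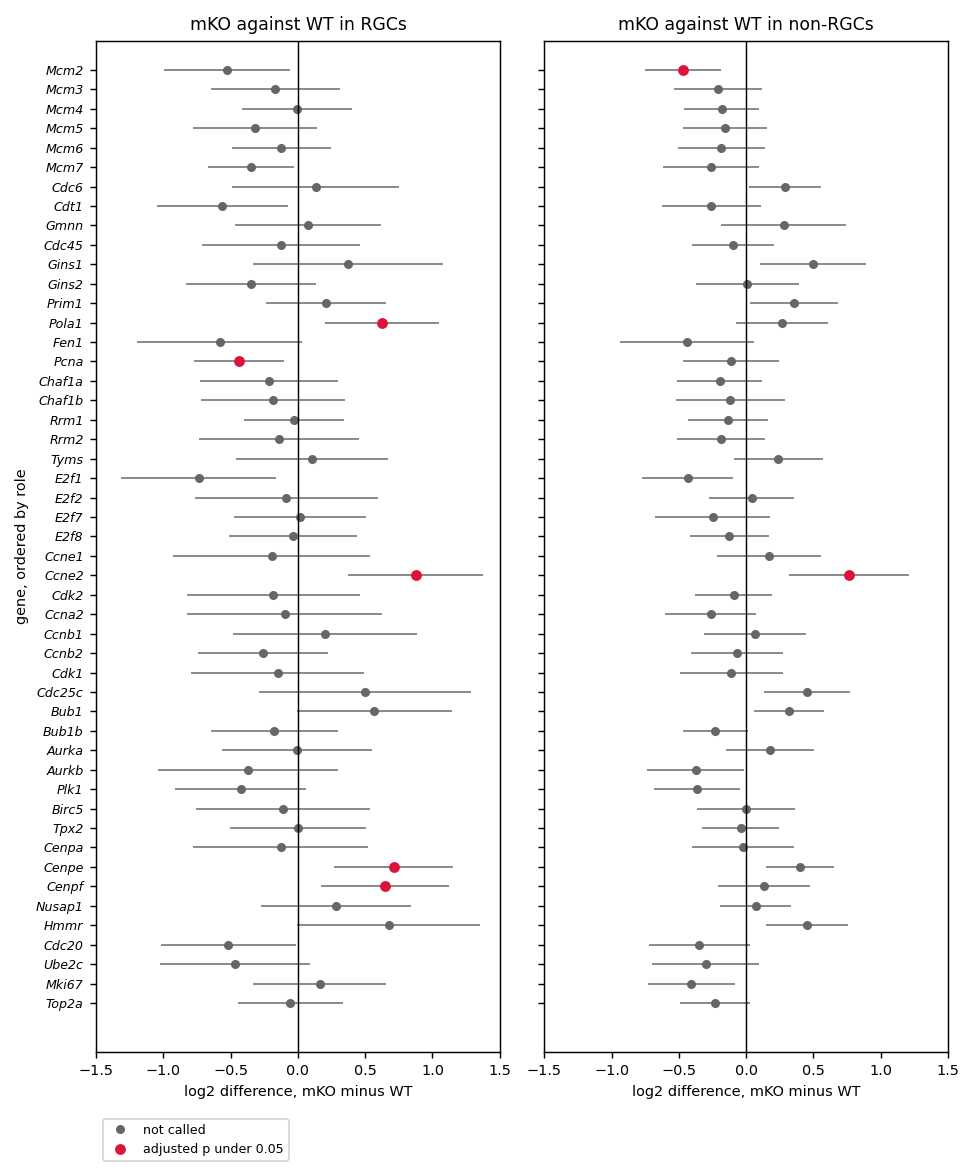
Points are the log2 differences of the 49 members between mKO and WT mice in RGCs (left) and non-RGCs (right), with bars of the 95% confidence interval and called members in red. In RGCs 4 members lie above 0 and Pcna below 0 in red, and in non-RGCs Ccne2 above and Mcm2 below. The median SE of the members is 0.22 in RGCs and 0.15 in non-RGCs.

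Without WT RGC library C, which leaves 3 mKO against 2 WT libraries, 18 members rose and 5 fell, where 23.2% of all genes rose and 27.7% fell, and the median of the members became 0.18. Library C was singled out by the high values of these same members. Leaving it out raised the difference and narrowed the SE of every member, so the counts and p-values without it are not independent support. The 4 members that rose with all libraries had log2 differences of 1.12 ± 0.10 SE, adjusted p = 0.000125 for Ccne2, 0.95 ± 0.059 SE, adjusted p = 4.89e-05 for Cenpe, 0.91 ± 0.051 SE, adjusted p = 4.84e-05 for Cenpf and 0.84 ± 0.082 SE, adjusted p = 0.000159 for Pola1 in limma. The other 14 that rose were Hmmr, Cdc25c, Bub1, Gins1, Nusap1, Ccnb1, Cdc6, Prim1, Mki67, Tyms, Gmnn, E2f7, Tpx2 and Mcm4. Among them Hmmr had 1.02 ± 0.12 SE, adjusted p = 0.000395 and Mki67 0.41 ± 0.093 SE, adjusted p = 0.00767 in limma. Pcna fell less than with all libraries, by 0.27 ± 0.057 SE, adjusted p = 0.00539 in limma, and E2f1, Cdt1, Mcm2 and Mcm7 were called lower as well, E2f1 with -0.44 ± 0.10 SE, adjusted p = 0.00784 in limma. By role, 5 of 6 spindle and centromere genes rose (median 0.74), whereas of the 9 licensing genes 3 rose and 3 fell (median 0.073). With the trend of GC content removed on the same libraries, Cdt1, Mcm2 and Mcm7 were no longer called (log2 difference 0.058, -0.097 and -0.032). There the licensing genes Mcm3, Cdc6 and Gmnn rose, and so did Cenpe, Cenpf, Hmmr and Nusap1, where 10.8% of all genes rose. Without WT library A no member was called higher and Pcna, E2f1 and Mcm2 were called lower, where 12.4% of all genes were called higher and 17.6% lower. Without WT library B Ccne2 was called higher and Cdt1 lower, against 13.0% and 18.5% of all genes. Without mKO library A Ccne2 alone was called (all genes 9.34% higher and 14.3% lower). No member was called without mKO library B (all genes 9.44% and 15.6%) or without mKO library C (8.92% and 14.6%). With all libraries, the fall of Pcna was not called with limma voom, with scaling to total reads, without the filter on low values, or with the trends of GC content and of reads per base of exon removed. Values that did not pass the test with all libraries changed sign without WT library C in some members, as in Ccna2, from -0.10 to 0.27, and Cdk1, from -0.15 to 0.18.

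Markers of other cells moved with the genotype in RGCs. Of the 10 progenitor markers 6 fell in mKO RGCs (median log2 difference -0.54) and 7 fell without library C (-0.40); their sum was 9951 to 10938 normalized reads in mKO and 13064 to 20515 in WT libraries. Of the 10 RGC markers 9 fell (median -0.47), with sums of 20383 to 21416 in mKO and 27984 to 30427 in WT libraries. Of the 8 photoreceptor markers 5 fell and 0 rose (median -0.70), with sums of 5423 to 5903 in mKO and 6683 to 9792 in WT libraries. Of the 8 amacrine and horizontal markers 4 fell and 0 rose (median -0.44), with sums of 5365 to 5705 and 6205 to 7397. The sums of these 4 lists did not overlap between genotypes. All 4 erythroid markers that passed the filter rose (median 1.30). Of the remaining lists, 0 of 6 microglia markers were called higher and 0 lower, 0 and 1 of 7 endothelial and pericyte markers, and 0 and 1 of 5 astrocyte markers. The part of these cells in the member values was not tested.

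In non-RGCs, most of which do not descend from cells that express Math5, the same comparison called 1 member higher and 1 lower in mKO mice, where 4.18% of the 15326 genes tested were called higher and 6.43% lower. The members had a median log2 difference of -0.11 (range -0.47 to 0.76), beside -0.026 over all genes. Ccne2 had 581, 498 and 425 normalized reads in mKO against 259, 256 and 377 in WT non-RGCs. No libraries overlapped, and Ccne2 rose 1.70-fold (log2 difference 0.76 ± 0.20 SE, adjusted p = 0.0406 in limma). Mcm2 had 1913, 1999.7 and 2227 against 2593, 2659 and 3267, with all mKO libraries below all WT libraries, and was 1.38-fold lower (log2 difference -0.47 ± 0.13 SE, adjusted p = 0.0443 in limma). The libraries did not overlap for 16 members, 8 in each direction, or 32.7% of them, against 36.7% of all genes. No member was called without mKO library A (all genes 1.85% higher and 5.87% lower), mKO library B (0.307% and 0.600%), WT library A (2.22% and 3.08%) or WT library B (1.06% and 1.42%). Without WT library C Ccne2 and Hmmr were called higher and none lower, against 4.76% and 5.81% of all genes. Without mKO library C these were called higher and E2f1 and Mcm2 lower, against 3.03% and 7.39%. With scaling to total reads, where the median of all genes was 0.14 and 1329 genes were called higher and 447 lower (8.67% and 2.92%) in place of 641 and 985, 8 members were called higher (Bub1, Ccne2, Cdc25c, Cdc6, Cenpe, Gins1, Hmmr and Prim1) and none lower.

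The other markers of division did not pass the test in non-RGCs. Mki67 had 5277, 4688 and 4303 in mKO against 5955, 5379 and 7747 in WT non-RGCs, all lower in mKO, with a log2 difference of -0.41 ± 0.14 SE (adjusted p = 0.0967 in limma). Top2a had 4285, 4938 and 5502 in mKO against 5403, 5669.6 and 6137 in WT non-RGCs and a log2 difference of -0.23 ± 0.12 SE. Pcna had 795, 929 and 1171 in mKO against 966, 1002 and 1136 in WT non-RGCs, with all WT values inside the mKO range, and a log2 difference of -0.11 ± 0.16 SE. The 5 other genes of the Mcm ring had lower means in mKO mice and were not called. Mcm3 had 1632, 1735 and 2021 in mKO against 1877, 1882 and 2498 in WT non-RGCs. Mcm4 had 1721, 1736 and 1808 in mKO against 1824, 1869.5 and 2314 in WT non-RGCs, without overlap. Mcm5 had 1684, 1876 and 2223 in mKO against 1921, 2106 and 2409 in WT non-RGCs. In Mcm3 and Mcm5 the mKO library C lay among the WT values. Mcm6 had 2022, 2229.9 and 2765 in mKO against 2398, 2547 and 2998 in WT non-RGCs. Mcm7 had 1550.4, 1866 and 2395 in mKO against 2127, 2235 and 2505 in WT non-RGCs, and in both the mKO library C again lay among the WT values. The log2 differences of Mcm3 to Mcm7 ran from -0.26 to -0.16, with adjusted p between 0.302 and 0.477 in limma.

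E2f1 had 1269.9, 1472 and 1764 in mKO against 1878, 1855 and 2338 in WT non-RGCs, again all lower in mKO, and missed the threshold at -0.43 ± 0.15 SE (adjusted p = 0.0923 in limma). Rrm2 had 1129.7, 1199 and 1522 in mKO against 1342, 1388 and 1632 in WT non-RGCs. Ccne1 had 361, 415 and 407 in mKO against 309, 323 and 426 in WT non-RGCs, and both overlapped between genotypes. Ccna2 had 1361, 1637 and 1819 in mKO against 1640.3, 1941 and 2198 in WT non-RGCs. Ccnb1 had 702, 840.2 and 860.0 in mKO against 659.5, 699.6 and 957 in WT non-RGCs. Cdk1 had 839.9, 995 and 1162 in mKO against 951, 979 and 1316 in WT non-RGCs. The genotypes overlapped in these 3, and their log2 differences were -0.26, 0.066 and -0.11. Cenpe, which rose in RGCs, had 2827, 2477 and 2509 in mKO against 2128, 1924 and 1871 in WT non-RGCs and was above all WT libraries here too, but its log2 difference of 0.40 ± 0.11 SE missed the threshold (adjusted p = 0.0506 in limma). Cenpf had 3851, 3428 and 2981 in mKO against 2857, 2718 and 3826 in WT non-RGCs and overlapped (0.14 ± 0.15 SE). Pola1 had 1122, 1103 and 922 in mKO against 937, 962 and 723 in WT non-RGCs and overlapped as well (0.27 ± 0.15 SE). Of the marker lists, 7 of 10 RGC markers rose in mKO non-RGCs (median log2 difference 0.99), with sums of 4842 to 6315 normalized reads in mKO and 3687 to 3915 in WT libraries, and all 4 erythroid markers rose (1.98). Of the 10 progenitor markers 1 fell (median -0.37), with sums of 15302 to 21045 in mKO and 22455 to 24208 in WT libraries. Of the 8 photoreceptor markers 5 fell and 0 rose (-0.55), with sums of 9195 to 10501 and 13410.2 to 15119.9. Of the 8 amacrine and horizontal markers 3 fell and 0 rose (-0.45), with sums of 9104 to 9834 and 12329 to 13580.3. The sums of these lists did not overlap between genotypes. Of the remaining lists, 0 of 4 microglia markers were called higher and 0 lower, 0 and 0 of 7 endothelial and pericyte markers, and 0 and 1 of 5 astrocyte markers. The sums of the endothelial and pericyte markers were 5229 to 5993 in mKO and 6812 to 7103 in WT libraries. The part of these cells in the member values was not tested.

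The difference of the mKO effect between RGCs and non-RGCs was tested directly, in a fit over all 12 libraries. No member differed in limma at an adjusted p under 0.05, where 0.0970% of all genes differed. None had an unadjusted p under 0.05 either, where 1499 of all 16502 genes did. Limma voom called no member as well, and of all genes it called 0 higher and 17 lower. The largest difference was that of Mki67, which was higher in mKO RGCs and lower in mKO non-RGCs in value, by 0.57 ± 0.26 SE on the log2 scale (95% confidence interval -0.0016 to 1.13, adjusted p = 0.546 in limma). The lowest was that of Ccne1, -0.37 ± 0.36 SE (interval -1.14 to 0.40). Without WT RGC library C, again no member passed the adjusted threshold, while 11 of 49 had an unadjusted p under 0.05, beside 8.69% of all genes. That library had the highest WT RGC value of every member, so leaving it out raises each of these differences.

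The log2 difference between genotypes followed the GC content of the exons, in the members as in all genes. The members ranged from 37.6% GC (Ccne2) to 58.5% (E2f1), the members with the highest and the lowest log2 difference in RGCs. Across the 49 members Spearman's rho between GC content and the log2 difference in RGCs was -0.78 (Pearson's r -0.79), and across 15889 genes rho was -0.63. In non-RGCs rho was -0.54 for the members (r -0.58) and -0.41 for 15151 genes. These are descriptions across genes of the same libraries, which are not independent replicates. The 12 members under 45% GC had a median log2 difference of 0.42 in RGCs, where all genes of that range had 0.36. The 19 from 45 to 50% had -0.10 against 0.11, and the 18 above 50% had -0.35 against -0.27. In non-RGCs the medians in the same order were 0.20, -0.10 and -0.23 for the members and 0.20, 0.032 and -0.20 for all genes.

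The members that rose in RGCs were low in GC content, at 37.6% (Ccne2), 41.2% (Pola1), 43.2% (Cenpf) and 43.4% (Cenpe), and Pcna, which fell, was as low at 43.4%. With the trend of each library with GC content taken out, none of the 4 remained called in limma, at 0.29 ± 0.22 SE, adjusted p = 0.415 for Ccne2, 0.43 ± 0.19 SE, adjusted p = 0.172 for Cenpe, 0.36 ± 0.20 SE, adjusted p = 0.280 for Cenpf and 0.24 ± 0.18 SE, adjusted p = 0.430 for Pola1. Pcna was then the only member called, lower by 0.72 ± 0.14 SE, adjusted p = 0.0189 in limma, where 11.9% of all genes were called lower. With the trend of reads per base of exon removed too, Pcna was no longer called (-0.49 ± 0.15 SE, adjusted p = 0.100 in limma), nor was any other member, where 2.01% of all genes were called higher and 4.47% lower. In non-RGCs neither Ccne2 nor Mcm2 remained called (log2 difference 0.40 and -0.36, adjusted p = 0.223 and 0.133 in limma), and with both trends removed no member was, where 0.766% of all genes were called higher and 1.33% lower. With WT RGC library C left out and the trend removed as well, a pair of choices made after seeing the data, 16 members rose and 2 fell, where 10.8% and 20.7% of all genes did. Cenpe had 0.67 ± 0.056 SE, adjusted p = 0.000273, Cenpf 0.62 ± 0.049 SE, adjusted p = 0.000251 and Ccne2 0.53 ± 0.11 SE, adjusted p = 0.0120 in limma. Pcna and Top2a were the members called lower there, Pcna with -0.54 ± 0.056 SE, adjusted p = 0.000560 and Top2a with -0.21 ± 0.056 SE, adjusted p = 0.0294 in limma. The call of Top2a is found in that setting alone. On the same libraries it had 0.15 ± 0.057 SE, adjusted p = 0.0620 without the correction and 0.13 ± 0.048 SE, adjusted p = 0.106 with the trend of reads per base of exon removed as well, in limma. With both trends removed 16 members rose and Pcna alone fell (-0.31 ± 0.050 SE, adjusted p = 0.00704 in limma), where 9.94% and 13.4% of all genes did. The GC trend runs with the genotype, and their parts in the differences cannot be told apart.

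**Figure D5:**
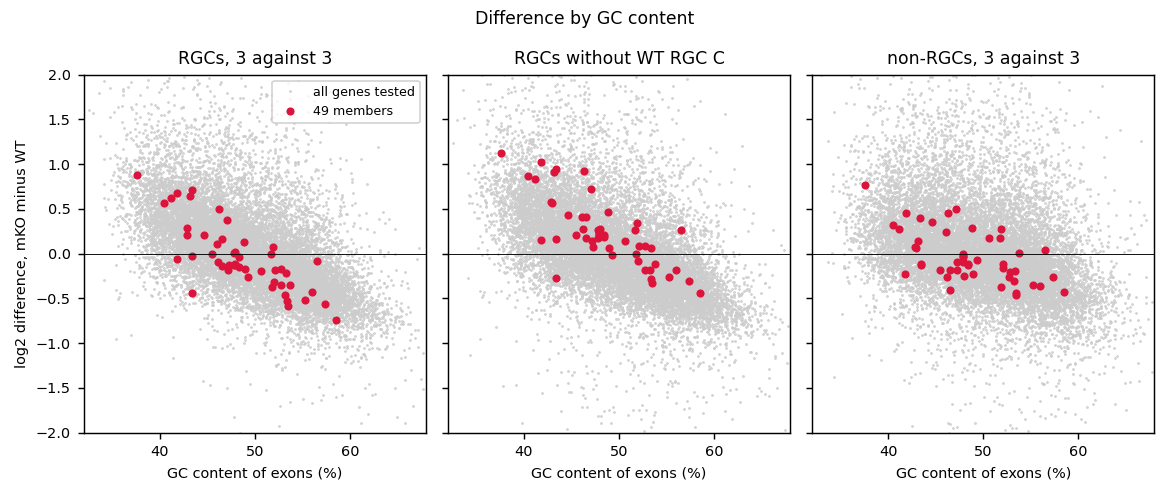
Points show the log2 difference between mKO and WT mice against the GC content of the exons in percent, for all genes tested (gray) and the 49 members (red), in RGCs, in RGCs without WT library C and in non-RGCs; the axes leave out 0.768%, 0.850% and 1.26% of the genes. Members and genes slope down with GC content in each panel, and without WT library C the members shift up against the gray points.

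The other genes of the pathways were taken from lists of 40 replication genes and 50 mitosis genes, of which 49 were tested, that hold no member. In WT mice 35 of 40 and 48 of 49 were called lower in RGCs than in non-RGCs, where 22.6% of all genes were, with medians of -0.74 and -1.21. In mKO RGCs 5 of the 40 replication genes rose and 4 fell (median log2 difference 0.091), where 16.3% of all genes rose and 21.2% fell. Those with the smallest p that rose were the origin recognition subunits Orc4 (0.80 ± 0.067 SE, adjusted p = 0.000651) and Orc3 (0.56 ± 0.067 SE, adjusted p = 0.00119) and the clamp loader subunit Rfc1 (0.37 ± 0.065 SE, adjusted p = 0.00468) in limma. Those with the smallest p that fell were the maintenance methyltransferase Dnmt1 (-0.37 ± 0.071 SE, adjusted p = 0.00702), Rfc2 (-0.38 ± 0.090 SE, adjusted p = 0.0159) and the polymerase delta subunit Pold2 (-0.66 ± 0.16 SE, adjusted p = 0.0185) in limma. Of the 49 mitosis genes, the kinetochore gene Cenpk (0.93 ± 0.29 SE, adjusted p = 0.0406) and the kinesin Kif18a (0.65 ± 0.20 SE, adjusted p = 0.0432) rose in limma. None of the mitosis genes fell, and their median was 0.092, beside the same shares of 16.3% and 21.2% of all genes. Without WT RGC library C 28 of the 49 mitosis genes rose and 0 fell. Of the 40 replication genes 19 then rose and 4 fell, where 23.2% of all genes rose and 27.7% fell. Library C was high for these lists too. The median log2 ratio of the mitosis genes to their mean over the RGC libraries was 0.46 in WT C, -0.35 in WT A and -0.28 in WT B. For the replication genes it was 0.30 in WT C and -0.20 in WT A and in WT B. Leaving out library C therefore raises both lists as a whole, and these counts are not independent support.

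In mKO non-RGCs, where 4.18% of all genes rose and 6.43% fell, 1 of 40 replication genes rose, Orc4 (0.65 ± 0.15 SE, adjusted p = 0.0248), and 2 fell, Dnmt1 (-0.53 ± 0.11 SE, adjusted p = 0.0228) and the polymerase delta subunit Pold1 (-0.50 ± 0.13 SE, adjusted p = 0.0410) in limma. Of the 49 mitosis genes Cenpk (0.94 ± 0.18 SE, adjusted p = 0.0162) and the cohesin protector Sgol1 (0.47 ± 0.13 SE, adjusted p = 0.0422) rose, and Foxm1, the factor that drives mitotic transcription, fell (-0.50 ± 0.13 SE, adjusted p = 0.0435) in limma. Their medians were 0.15 and -0.038. With the GC trend removed, 1 of the 40 replication genes and 1 of the 49 mitosis genes were called lower in RGCs and none higher, where 11.9% of all genes were called lower and 3.74% higher. In non-RGCs 0 and 0 were then called in limma in either direction, where 1.19% of all genes were called higher and 1.66% lower.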

How the data were processed

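RNA-seq of bead-selected RGCs and of non-RGCs from P0 retinas of WT and mKO mice was used, with 3 libraries per group. The authors aligned reads with STAR 2.3.1z4 to mm10, counted them per gene with featureCounts and divided them by DESeq size factors. The tables they deposited hold, per gene, the mean signal of each group (normalized reads), with columns of the authors' own fold change, log2 fold change and p-value, which were not used. The names of the tables mark sorted primary alignments with duplicates removed. The counting of strand is not given in the sources used here. Each group mean carries enough digits that the whole reads of the 3 libraries could be recovered for 100% of the genes with reads, in one combination per gene. Because the library values carry no sample number, they were lettered by depth. No column of per-sample values was left unused (0 columns). Depth was between 7139633 and 13014004 reads on genes, and members had 40 to 7430 reads in a library, which is above the floor of 3 reads throughout. Replicate libraries differed beyond counting noise in all 12 pairs (chi-square per degree of freedom 3.81 to 29.9).

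Genotypes were compared within each fraction in limma 3.58.1 (R 4.3.3, trend) on log2(normalized reads + 1), for genes whose mean reached 10 in one genotype or the other. Fractions and the difference of effects were fitted over 12 libraries scaled by the median of ratios. A gene was called at a Benjamini-Hochberg adjusted p under 0.05 over all genes tested, and SE and 95% intervals are from the same fit. An exact permutation test of 3 against 3 libraries cannot go below p = 0.1, so none was run. Exon length, GC content and shared exon bases came from GENCODE M21 on GRCm38. The GC trend of each library was removed by lowess (share of genes 0.3, statsmodels 0.14.6), and in a further alternative the trend with reads per base of exon too. Other alternatives were a pseudocount of 0.5, other filters, scaling to total reads, limma voom on the recovered reads, a threshold of p under 0.05 with a fold change of 1.5, and leaving out each library. Fits were also run on simulated data with a fixed dispersion for all genes. These data held no outlying library and no GC trend, so they do not check the calls against either. Python 3.11.15, numpy 2.4.6, pandas 2.3.3, scipy 1.17.1, numba 0.67.0 and matplotlib 3.10.9 were used. Values per library are given for Mki67, Top2a, Pcna, Mcm2 to Mcm7, Ccna2, Ccnb1, Cdk1, Ccne1, E2f1 and Rrm2, for members called between genotypes and for the extremes of each comparison. Cdt1 and Hmmr were added after their values were seen. The members and all gene lists were chosen with earlier results of these data known.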

Additional observations from a re-analysis of the deposited data

How the results depend on the processing

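The counts of members lower in RGCs than in non-RGCs stayed within 1.5 times under every alternative run, and leaving out 1 library gave 46 to 49 in WT and 48 to 49 in mKO mice. The difference of the mKO effect called 0 members under all alternatives, 0 to 0 when leaving out 1 library. The genotype counts did not hold in this way. In RGCs, 0 members were called higher with the GC trend removed and 0 with the GC and reads per base trends removed, and leaving out 1 library gave 0 to 18. The pair of alternatives chosen after seeing the data, without WT RGC library C and with the GC trend or both trends removed, gave 16 and 16. Those called lower were 0 without the filter on low values, with scaling to total reads, with both trends removed and with limma voom, 0 to 5 when leaving out 1 library, and 2 without WT RGC library C with the GC trend removed. Of all genes, 3116 of 26516 were called lower in RGCs without the filter and 3417 of 16085 with limma voom. In non-RGCs 8 were called higher with scaling to total reads, 2 with limma voom and 0 with the GC trend or both trends removed, and 0 to 2 when leaving out 1 library. Limma voom called 705 of all 15326 genes higher in non-RGCs. Members called lower in non-RGCs were 0 without the filter, with scaling to total reads, with the GC trend or both trends removed and with the threshold of p under 0.05 and 1.5-fold, and 0 to 2 when leaving out 1 library. Of all genes, 891 of 25379 were lower there without the filter and 1040 of 15326 with that threshold. The cause was not tested for any of these.

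The log2 differences counted here are those of Cdt1 and Hmmr in RGCs and of the members whose values are printed per library. The alternatives kept direction and side of the threshold in 578 of these values. They lost a call in 53, gained one in 24 and changed the sign in 51. No member called between genotypes with all libraries changed its sign in the comparison it was called in, and the changes are of values that had not passed the test there. In RGCs with scaling to total reads, the sign turned for Top2a (0.066), Mcm4 (0.12) and Ccna2 (0.023). In RGCs with limma voom, the sign turned for Mcm4 (0.0045). In RGCs with the GC trend removed, the sign turned for Ccnb1 (-0.10). In RGCs with both trends removed, the sign turned for Mcm3 (0.062) and Ccnb1 (-0.14). In RGCs without WT library C and with the GC trend removed, the sign turned for Mcm3 (0.24), Mcm4 (0.021), Mcm5 (0.039), Ccna2 (0.12), Cdk1 (0.14), Ccne1 (0.20), Rrm2 (0.041) and Cdt1 (0.058). In RGCs without WT library C and with both trends removed, the sign turned for Top2a (0.13), Mcm3 (0.30), Mcm4 (0.20), Mcm5 (0.11), Mcm6 (0.15), Mcm7 (0.064), Ccna2 (0.25), Cdk1 (0.13), Ccne1 (0.15), E2f1 (0.035), Rrm2 (0.20) and Cdt1 (0.046). Leaving out 1 library in RGCs, it turned for Ccna2 (-0.39 to 0.27), Ccnb1 (-0.026 to 0.56), Ccne1 (-0.40 to 0.14), Cdk1 (-0.36 to 0.18), Mcm3 (-0.30 to 0.086), Mcm4 (-0.13 to 0.21), Mcm6 (-0.23 to 0.073), Mki67 (-0.047 to 0.41), Rrm2 (-0.34 to 0.18) and Top2a (-0.19 to 0.15). In non-RGCs with scaling to total reads, the sign turned for Pcna (0.056), Mcm5 (0.014) and Cdk1 (0.059). In non-RGCs with the GC trend removed, the sign turned for Ccnb1 (-0.12) and Cenpf (-0.049). In non-RGCs with both trends removed, the sign turned for Mcm3 (0.043), Mcm5 (0.089), Ccnb1 (-0.025) and E2f1 (0.031). Cdt1 in non-RGCs, which is outside these counts, turned from -0.26 to 0.0065 with the GC trend removed and to 0.13 with both. Leaving out 1 library in non-RGCs, it turned for Ccnb1 (-0.037 to 0.23), Cdk1 (-0.23 to 0.037) and Pcna (-0.26 to 0.015). Leaving out WT RGC library C leaves 2 WT libraries. No paired analysis was possible because the deposited columns carry no replicate numbers. With 3 libraries per group, a member that was not called may still differ by any amount within its interval.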
